A study of Mus musculus with 5 samples.

Results

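The forkhead (Fox) genes were followed in a pooled CRISPR screen of mouse embryonic stem (ES) cells. All genes of the guide library whose name starts with Fox were taken, apart from Foxd3, which gave 36 of the 1682 targeted genes. They carry 360 of the 17820 guides, at 10 guides per gene. Guide RNAs were delivered by lentivirus and counted by sequencing, so that a guide that slows or stops its cells loses reads relative to the others.

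The series holds 3 libraries of transduced ES cells, at day 5, day 8 and day 12, and 2 replicate libraries of the plasmid pool, called plasmid 1 and plasmid 2 here. All 5 bear the genotype label Ainv15(iNgn2 Tubb3::GFP), the plasmid libraries too, and the transduced cells were kept in Zeocin in ES cell medium. Sample titles count days from transduction and the treatment protocol counts the earliest time point from selection, so the slopes per day below rest on the titles. Each time point has 1 library, and the labels do not tell whether the time points came from the same wells.

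Forkhead proteins share a winged-helix DNA-binding domain, the forkhead box, and are sorted into lettered classes by its sequence. Several act in early lineage choice: FOXA proteins open closed chromatin in endoderm, FOXH1 carries SMAD proteins to Nodal target genes, and classes such as C, E and F act in mesoderm, thyroid and gut mesenchyme. Others work in many cell types. FOXO proteins are kept out of the nucleus by AKT signalling, FOXM1 activates genes of mitosis, and FOXK proteins bind chromatin with the SIN3 corepressor and the BAP1 deubiquitinase.

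The guides to the lowest and the highest member at day 12 are shown because their base composition and overlaps return in the results. They are written 5′ to 3′, with the 10 bases at the 3′ end, the end that lies beside the PAM in Cas9 targets, in capitals. Foxn2 lies on chromosome 17 (chr17:88440704-88490533, GRCm38.p6, RefSeq). Its 9 guides with enough reads were:
Foxn2 guide 1: agaagactaaAGGAGTACGG
Foxn2 guide 2: agagcagagcTTAAGCAGTG
Foxn2 guide 3: ttaatggaaaAGGCTCCTTG
Foxn2 guide 5: ttctggatcaACGCACCACA
Foxn2 guide 6: ttgccactgcACCTACAGGC
Foxn2 guide 7: atataagcccAATCTTATGC
Foxn2 guide 8: caggctggaaGAATTCTGTT
Foxn2 guide 9: catataaatgAGAAGACTAA
Foxn2 guide 10: ataagattggGCTTATATTC

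Foxp3 lies on the X chromosome (chrX:7579676-7595243, GRCm38.p6, RefSeq). Its 7 guides with enough reads were:
Foxp3 guide 1: tacagtgcccCTAGTCATGG
Foxp3 guide 2: accatgactaGGGGCACTGT
Foxp3 guide 4: accccagtggCAGCAGAAGG
Foxp3 guide 7: ggttgtccagTGGACGCACT
Foxp3 guide 8: gcatgaagtgTGGTCTGTCC
Foxp3 guide 9: agtggacgcaCTTGGAGCAC
Foxp3 guide 10: ggagcacaggGGTCTGGGCA

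Of the 360 forkhead guides, 300 had at least 30 reads in each plasmid library and were used, 6 to 10 per gene. The other 60 were left out, and 6 of these, among them 2 each for Foxo1 and Foxp4, had no reads in any library. Total reads were 3541896 and 1350234 in plasmid 1 and plasmid 2, and 1063071, 1082489 and 1008492 at days 5, 8 and 12. The median used forkhead guide had 176 and 63 reads in the plasmid libraries and 54, 58 and 53 reads at days 5, 8 and 12. None of the 300 was at 0 reads at any day, whereas 93 of the 14443 used guides to all genes had none at day 12.

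Day 12 was compared with the plasmid libraries to see which guides were lost or gained by the last time point, an interval that includes transduction and selection as well as growth. Reads were turned into CPM (counts relative to library size) with TMM factors, and each guide was expressed as log2 of its CPM over the mean of both plasmid libraries, with a pseudocount of 1 on each side. A gene's value is the median over its guides, and 0 stands for about the typical guide. With 1 library at day 12 these values are descriptions with no test. With TMM factors the forkhead genes stayed near their plasmid abundance, whereas scaled to the non-targeting guides their median was -0.44 and 6 of 36 lay below -1, where 29.1% of all genes lay. Their medians ran from -1.06 (Foxn2) to 0.89 (Foxp3), with a family median of 0.22, against 0.009 over all 1682 genes. The SD over genes was 0.42 for forkhead genes and 0.90 for all genes. The quartiles were 0.03 and 0.34 for forkhead genes, and -0.47 and 0.30 for all genes. Foxn2 alone, 2.78% of the members, lay below a log2 change of -1, where 15.8% of all genes lay. No member lay above 1, where 1.19% of all genes lay.

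Single guides spread less than guides to all genes too. At day 12, 26 of 300 forkhead guides (8.67%) were below -1, against 21.5% of guides to all genes and 3.36% of the 893 non-targeting control guides. Above 1 were 24 forkhead guides (8.0%), against 7.39% of guides to all genes and 22.3% of non-targeting guides. The SD of single guides was 0.80 for forkhead genes, 1.23 for all genes and 0.70 for non-targeting guides. Non-targeting guides had a median of 0.58, and 5 of 36 forkhead genes (13.9%) lay above it, against 6.24% of all genes.

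A trend over days, with plasmid at day 0, was tested with edgeR's quasi-likelihood method on the reads summed over each gene's guides. It uses all 5 libraries and has 3 residual degrees of freedom. Its p-values measure departures from a straight course and the spread of the plasmid libraries, not the spread of cultures. At an adjusted p of 0.05 it called 59.9% of all genes and 20 of 36 forkhead genes (55.6%). Of these, 3 fell (8.33%, background 25.2%) and 17 rose (47.2%, background 34.7%) relative to the typical guide, but scaled to the non-targeting guides 20 forkhead genes fell (background 73.1%) and none rose (background 1.13%). All 17 rising calls were lost under that scaling, and 14 of them sloped downward. It moved the median of all genes by -0.65 at day 12, and the forkhead median stood 0.20 above that of all genes there and 0.21 above it with TMM factors. "Rose" and "fell" below are relative to the typical guide with TMM factors.

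The same test on single guides called 33 of 300 forkhead guides falling (background 22.9%) and 68 rising (22.7%, background 17.8%). Non-targeting guides were called rising in 45.4% of cases and falling in 4.82%. Scaled to the non-targeting guides, the test called 98 forkhead guides falling (background 47.0%) and 9 rising (background 2.9%).

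Among the endoderm pioneer factors, Foxa1 rose and Foxa2 and Foxa3 did not pass. Foxa1 had 781 and 849 scaled CPM, summed over its guides, in plasmid 1 and plasmid 2, then 823, 1000 and 1130 at days 5, 8 and 12. Days 8 and 12 lay above both plasmid libraries, and day 5 lay between them. The median of Foxa1 was 0.34 at day 12, and 0.55 for day 12 against day 5, the highest of the family in that comparison. Its slope was 0.039 log2 units per day (SE 0.0094, edgeR quasi-likelihood adjusted p = 0.0074), and -0.020 when scaled to the non-targeting guides (adjusted p = 0.177). Foxa2 had a median of 0.11 at day 12, with 5 guides above and 5 below 0. The median of Foxa3 was -0.43, 6 of its 8 guides lay below 0, and its slope of -0.036 missed the threshold (edgeR adjusted p = 0.0506). It passed in 7 of 13 alternatives, among them G+C correction (-0.051, edgeR adjusted p = 0.0169) and non-targeting scaling (-0.095, adjusted p = 0.00221). With at least 100 reads in each plasmid library only its guide 3 was left (283 and 102 reads), at 0.04. Its guide 6 was the lowest single guide of the family, at -2.75, with 170 and 87 reads in the plasmid libraries and 16, 9 and 7 at days 5, 8 and 12.

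Foxh1, the SMAD partner of Nodal signalling, rose in the trend, but not without 1 of its guides. The gene had 565 and 512 scaled CPM in the plasmid libraries, then 658, 660 and 744 at days 5, 8 and 12, all 3 cell libraries above both plasmid libraries. Its median over guides was 0.27, 0.36 and 0.14 at days 5, 8 and 12 (SD at day 12 1.08, 4 of 10 guides below 0). For day 12 against day 5 the median was -0.31. Its slope was 0.038 per day (SE 0.0080, edgeR quasi-likelihood adjusted p = 0.00367), and -0.021 when scaled to the non-targeting guides (adjusted p = 0.0867). Guide 9 of Foxh1 had 88 and 37 reads in the plasmid libraries and 33, 66 and 177 reads at days 5, 8 and 12. Its change of 2.82 was the highest among the 300 forkhead guides, and it held 25.9% of the gene's 683 reads at day 12. Without guide 9, an alternative chosen after its value was seen, the slope was 0.014 and did not pass (edgeR adjusted p = 0.311).

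The FOXO genes, which restrain growth when AKT signalling is low, included 1 that rose. Foxo3 had 690 and 629 scaled CPM in the plasmid libraries, then 781, 882 and 971 at days 5, 8 and 12, with every cell library above both plasmid libraries. Its median of 0.57 at day 12 (SD 0.48, 8 of 10 guides above 0) was next to the non-targeting median of 0.58. It rose by 0.048 per day (SE 0.0079, edgeR quasi-likelihood adjusted p = 0.00113). Foxo4 (0.31) and Foxo1 (-0.05) were not called.

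Foxm1 and Foxk2 fell. For Foxm1 (chr6:128362994-128375886), the activator of mitotic genes, scaled CPM were 215 and 226 in the plasmid libraries, then 117, 93.6 and 131 at days 5, 8 and 12. Both plasmid libraries lay above all 3 cell libraries, and most of the difference was there at day 5, when the median of -0.72 was the lowest of the family. The median was -0.88 at day 8 and -0.48 at day 12 (SD 0.96, 5 of 6 guides below 0), and the slope was -0.084 per day (SE 0.029, edgeR quasi-likelihood adjusted p = 0.0314). Scaled to the non-targeting guides the slope was -0.141 (edgeR adjusted p = 0.00726). Foxm1 rested on 120 reads at day 12 (95% exact Poisson interval 99.5 to 143, counting error only), the fewest in the family. Its guide 9 was at -1.90, -2.27 and -2.45 at days 5, 8 and 12 and was the single guide of the gene that was called. The trend did not pass without plasmid 1 (-0.074, edgeR adjusted p = 0.17), plasmid 2 (-0.069, adjusted p = 0.224) or day 8 (-0.069, adjusted p = 0.054), nor with G+C correction (-0.061, adjusted p = 0.0722) or no filter on guides (-0.046, adjusted p = 0.135). Without day 12 the slope was -0.161 (edgeR adjusted p = 1.84e-05).

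Foxk2 (chr11:121259987-121309900), a chromatin-bound repressor, had 486 and 423 scaled CPM in the plasmid libraries, then 415, 397 and 342 at days 5, 8 and 12. All cell libraries lay below both plasmid libraries, but the plasmid libraries differed from each other by more than plasmid 2 did from day 8. Its medians were -0.08, -0.10 and -0.56 at days 5, 8 and 12 (SD at day 12 0.79, 6 of 10 guides below 0). It fell by 0.032 per day (SE 0.011, edgeR quasi-likelihood adjusted p = 0.0376). The call was lost with no filter on guides (-0.029, edgeR adjusted p = 0.0575). It was also lost with cells set against plasmid (log2 change -0.242, edgeR adjusted p = 0.182). The trend did not pass without plasmid 1 (-0.024, edgeR adjusted p = 0.23), day 8 (-0.034, adjusted p = 0.0581) or day 12 (-0.026, adjusted p = 0.153). Its lowest and highest guides were chosen for display because they differ most within the gene:
Foxk2 guide 4: gatagtacaaGCAATTACAA
Foxk2 guide 1: ctatccatacTACAGGACTG
Guide 4, with 6 G or C bases of 20, ended at -2.16, and guide 1, with 9, ended at 0.28. Guides 3 and 10, with 7 and 6, ended at -0.46 and -0.66. Guides 2, 6 and 9, with 13, 12 and 17, ended at -1.07, -1.15 and -0.95. Guides 5, 7 and 8, with 12, 17 and 10, ended at 0.16, 0.07 and 0.25. With G+C correction the slope of Foxk2 was -0.035, and scaled to the non-targeting guides it was -0.092 (edgeR adjusted p = 0.00089).

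Foxp3, the factor that defines regulatory T cells, was the highest member. It had 416 and 429 scaled CPM in the plasmid libraries, then 590, 706 and 755 at days 5, 8 and 12, with all 3 cell libraries above both plasmid libraries. Its medians were 0.16, 0.71 and 0.89 at days 5, 8 and 12 (SD at day 12 0.50, 6 of 7 guides above 0), a 1.85-fold level that stood 1654th from the lowest of 1682 genes. Foxp3 rose by 0.075 per day (SE 0.0089, edgeR quasi-likelihood adjusted p = 0.000197), but by an uncalled 0.016 when scaled to the non-targeting guides (adjusted p = 0.134). Its guides 7 and 9, shown above, overlap by 12 bases and ended at 0.97 and 1.20.

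The other FOXP genes lay on both sides of 0. Foxp1, a regulator of B cells and other lineages, had 367 and 380 scaled CPM in the plasmid libraries, then 438, 424 and 483 at days 5, 8 and 12, with a median of 0.30. It rose by 0.029 per day (SE 0.011, edgeR quasi-likelihood adjusted p = 0.0395). The call was lost without plasmid 1 (edgeR adjusted p = 0.138), plasmid 2 (0.107), day 8 (0.0544) or day 12 (0.122). Foxp2 (0.27) and Foxp4 (-0.46) were not called.

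In the FOXJ and FOXN classes, Foxn2 fell and had the lowest median of the family. It had 690 and 637 scaled CPM in the plasmid libraries, then 571, 501 and 453 at days 5, 8 and 12, each time point below the one before it. The raw reads behind these were 2390 and 851 in the plasmid libraries and 593, 525 and 416 at days 5, 8 and 12 (95% exact Poisson interval at day 12 377 to 458, counting error only). The median over its guides was -0.27, -0.70 and -1.06 at days 5, 8 and 12 (SD at day 12 1.10, 6 of 9 guides below 0), which left 48.0% of the plasmid abundance and ranked it 255th from the lowest. It fell by 0.047 per day (SE 0.0077, edgeR quasi-likelihood adjusted p = 0.000992).

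The guides of Foxn2 split by value. Guides 7, 9 and 10, with 7, 5 and 6 G or C bases, ended at -2.38, -2.26 and -1.79. Guides 1, 2 and 5, with 9, 10 and 10, ended at -1.21, -0.98 and -1.06, and each was called falling in the guide trend. Guides 3, 6 and 8, with 8, 12 and 9, ended at 0.30, 0.06 and 0.63. Guide 3 had the most reads, and the log2 ratio of the gene's summed reads was -0.55, smaller in size than the median. Guides 7 and 10 lie on opposite strands of 1 target and share 18 bases. After a correction for G+C content fitted to the non-targeting guides, the median of Foxn2 was -0.96 and its slope of -0.020 did not pass (edgeR quasi-likelihood adjusted p = 0.0951). Without plasmid 2 the median was -0.94, inside the fold rule.

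Foxn3 and Foxn4 rose, with medians of 0.22 and 0.21. Foxn3 had 519 and 439 scaled CPM in the plasmid libraries, then 636, 636 and 639 at days 5, 8 and 12 (slope 0.038, SE 0.011, edgeR adjusted p = 0.0177, and slope 0.025, adjusted p = 0.0846 without plasmid 2). Foxn4, a gene of retinal progenitors, had 640 and 586 in the plasmid libraries, then 646, 725 and 859 at days 5, 8 and 12 (slope 0.038, SE 0.0082, edgeR adjusted p = 0.00445, and 0.0646 without day 12). Foxn1 (0.09), which drives thymic epithelium, Foxj1 (-0.45), which drives motile cilia, Foxj2 (-0.04) and Foxj3 (0.15) were not called.

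With TMM factors and no G+C correction, the tissue-restricted classes held most of the upper end. The median of these 16 genes was 0.31, and 15 of 16 were above 0, where 50.8% of all genes and 27 of the 36 forkhead genes lay. Foxb1, at -0.19, was the exception. In the trend 10 of the 16 rose (background 34.7%) and none fell (background 25.2%) with TMM factors, but when scaled to the non-targeting guides none rose (background 1.13%) and 8 fell (background 73.1%). With G+C correction added to that scaling, 12 fell (background 77.3%). With G+C correction alone, the rising calls on Foxc2, Foxd1, Foxd4, Foxe1 and Foxe3 were lost (rising background 27.2%). The medians below 0 then included those of Foxb1 (-0.57), Foxf2 (-0.15) and Foxc2 (-0.04). The 2 members above the corrected non-targeting median of 0.51 were Foxp3 (0.64) and Foxj3 (0.56), outside these classes. Foxq1 (chr13:31558170-31560976) had 639 and 656 scaled CPM in the plasmid libraries, then 817, 897 and 1040 at days 5, 8 and 12. Every cell library lay above both plasmid libraries. Its median was 0.86 (SD 0.81, 7 of 9 guides above 0), and it rose by 0.058 per day (SE 0.0074, edgeR quasi-likelihood adjusted p = 0.000324).

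Foxl1, a gene of gut mesenchyme, had 938 and 971 scaled CPM in the plasmid libraries, then 1260, 1380 and 1630 at days 5, 8 and 12, the highest in the family in every library. Its median was 0.64 and its slope 0.065 (SE 0.0096, edgeR quasi-likelihood adjusted p = 0.000641). Foxd1, a gene of kidney stroma, had 600 and 543 in the plasmid libraries, then 763, 785 and 813 at days 5, 8 and 12, with medians of 0.30, 0.54 and 0.75. The lens gene Foxe3 had 410 and 510 in the plasmid libraries, then 714, 723 and 729 at days 5, 8 and 12, with medians of 0.58, 0.49 and 0.73. All cell libraries of both genes lay above both plasmid libraries, and both rose (slopes 0.046 and 0.063, edgeR adjusted p = 0.00387 and 0.00644).

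Foxs1 had 474 and 524 scaled CPM in the plasmid libraries, then 680, 713 and 726 at days 5, 8 and 12. The thyroid gene Foxe1 had 535 and 469 in the plasmid libraries, then 622, 645 and 706 at days 5, 8 and 12. Both genes had every cell library above both plasmid libraries and rose (slopes 0.051 and 0.042, edgeR adjusted p = 0.00311 and 0.00342). The medians at day 12 were 0.54 for Foxs1 and 0.26 for Foxe1.

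Foxc2, Foxd4 and Foxl2 rose, with calls that were lost when either plasmid library was left out. Foxc2, of vessels and lymphatics, had 753 and 737 scaled CPM in the plasmid libraries, then 892, 910 and 945 at days 5, 8 and 12. Foxd4 had 600 and 604 in the plasmid libraries, then 629, 698 and 734 at days 5, 8 and 12. Foxl2, of the ovary, had 792 and 793 in the plasmid libraries, then 755, 804 and 1150 at days 5, 8 and 12, so that day 12 alone stood well apart. Their medians were 0.32, 0.37 and 0.22, and their slopes 0.030, 0.024 and 0.036 (edgeR adjusted p = 0.0117, 0.0149 and 0.035). The calls were lost without plasmid 1 (edgeR adjusted p = 0.0622, 0.0586 and 0.0509) and without plasmid 2 (0.0851, 0.053 and 0.0561). Without day 12 that on Foxd4 was lost (edgeR adjusted p = 0.0815) and the slope of Foxl2 was -3.1e-05 (adjusted p = 0.999). The slopes of Foxc2 and Foxd4 changed little without a plasmid library. They were 0.030 and 0.025 without plasmid 1, and 0.027 and 0.025 without plasmid 2. Foxc1 (0.30), Foxd2 (0.23), Foxi1 (0.36), Foxf1 (0.05) and Foxf2 (0.06) were not called.

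The family spread widened over time, by less than that of all genes. The family median was 0.06, 0.22 and 0.22 at days 5, 8 and 12, and the SD over genes was 0.25, 0.36 and 0.42. Over all genes the SD was 0.49, 0.75 and 0.90. No member was past a log2 change of 1 at day 5 (background 6.36%) or day 8 (background 12.3%). Above 0 were 25 genes at day 5 (background 50.6%) and 24 at day 8 (background 51.0%), and 19 genes were above 0 and 6 below 0 at all 3 time points. For day 12 against day 5, with both libraries from transduced cells, medians ran from -0.71 (Foxn2) to 0.55 (Foxa1), with none past 1 (background 7.85%). Between the plasmid libraries the gene medians of plasmid 2 over plasmid 1 ran from -0.31 to 0.41 (SD 0.15), so many of the smaller changes are of that size.

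G+C content moved with these values. Forkhead guides had on average 11.6 G or C bases of 20, against 10.8 in guides to all genes and 11.1 in non-targeting guides. Among non-targeting guides each further G or C base went with a log2 change higher by 0.121 (day 8) to 0.126 (day 5). At day 12, guides with 0 to 7 such bases had a median of -0.56 in forkhead genes (12 guides) and -0.59 in non-targeting guides (12 guides). With 8 to 9 the medians were -0.19 (45 forkhead guides) and 0.18 (161 non-targeting), and with 10 to 11 they were 0.14 (86) and 0.58 (341). With 12 to 13 they were 0.19 (97) and 0.66 (281), and with 14 to 20 they were 0.53 (60) and 0.80 (98). Forkhead guides thus had the lower median in every bin but the lowest.

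Across the 36 forkhead genes, which share the libraries, mean G+C content and the gene median had a Pearson r of 0.64, 0.61 and 0.49 at days 5, 8 and 12. It was 0.06 for day 12 against day 5. Over all genes r was 0.36, 0.32 and 0.31, and 0.20 for day 12 against day 5. With the G+C correction, the day 12 median was 0.10 for forkhead genes, -0.02 for all genes and 0.51 for non-targeting guides, and 2 of 36 forkhead genes (5.56%) lay above the non-targeting median, against 6.72% of all genes. In the corrected trend 4 forkhead genes fell (11.1%, background 22.6%) and 10 rose (27.8%, background 27.2%). The 4 were Foxk2 and, not called without the correction, Foxa3, Foxb1 and Foxp4 (edgeR adjusted p = 0.0299, 0.0169, 0.00411 and 0.0235), while Foxm1 and Foxn2 no longer passed. The rising calls lost were Foxc2, Foxd1, Foxd4, Foxe1, Foxe3, Foxn3 and Foxn4. With the correction and scaling to the non-targeting guides together, an alternative added after seeing the data, 25 forkhead genes fell (background 77.3%) and none rose (background 0.951%). Of single guides, 127 fell (background 49.4%) and 5 rose (background 2.69%).

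Gene length moved with G+C content. The 18 members whose RefSeq span is under 5000 bp had a day 12 median of 0.28 and a mean of 12.4 G or C bases per guide, and the 18 longer ones had 0.12 and 10.8. With the G+C correction the medians were 0.10 and 0.09.

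Guides of 1 gene that share at least 10 bases of target differed about as much as those that do not. Over 76 overlapping forkhead pairs the median difference at day 12 was 0.72, and over 1050 pairs without overlap it was 0.71. The difference exceeded 1 in 32.9% of overlapping pairs and 32.6% of the others. Over all genes the shares were 34.4% and 37.1%, and the median differences 0.68 and 0.74, so this was not particular to the family. The pairs below, with the shared bases in capitals, were chosen after their values were seen, as examples of large differences on nearly the same target:
Foxf1 guide 1: tctTCTATGCATACAACAGG
Foxf1 guide 6: TCTATGCATACAACAGGcgg
Foxq1 guide 3: cgAGATCAACGAGTACCTCA
Foxq1 guide 10: caTGAGGTACTCGTTGATCT
Foxf1 guides 1 and 6 share 17 bases on the same strand and ended at -2.28 and 0.90. Foxq1 guides 3 and 10 share 18 bases on opposite strands and ended at -1.28 and 0.91. Pairs that share 19 bases went both ways. In Foxe1 (guides 3 and 9), Foxe3 (guides 7 and 9) and Foxp3 (guides 1 and 2) they differed by 0.02, 0.33 and 0.61. In Foxk2 (guides 7 and 9), Foxl2 (guides 1 and 10) and Foxn4 (guides 8 and 10) they differed by 1.02, 1.19 and 1.09.

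Foxf2, a gene of gut mesenchyme like Foxf1, had the largest SD over guides, 1.18. Its lowest and highest guide are shown with the 10 bases at the 3′ end in capitals:
Foxf2 guide 7: ctcctcaaacATGAATTCGC
Foxf2 guide 3: aagagccactAGCGGAAGGG
Guide 7 had 315 and 157 reads in the plasmid libraries and 29, 25 and 23 at days 5, 8 and 12, a change of -2.01. Guide 3 had 110 and 31 in the plasmid libraries and 65, 87 and 108 at days 5, 8 and 12, a change of 2.06.

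Similar guides to different genes were few. Of the 360 forkhead guides, 25 (6.94%) had a guide to another gene within 4 mismatches, against 3.77% of guides to all genes, and none had one closer. Within the family there were 11 such pairs. As examples, related guides to Foxc1, Foxc2 and Foxl1 ended at 0.30, 0.13 and 0.07, and a pair to Foxo3 and Foxo4 ended at 0.89 and 0.20. A pair to Foxd4 and Foxl2 ended at -0.15 and -1.0, and a pair to Foxf1 and Foxf2 at 0.78 and -0.07.

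Known partners of forkhead proteins were counted from a fixed list. Of 27 listed, 22 are in the library, with a median of -0.31 at day 12, against 0.009 over all genes. Below -1 were 5 of them (background 15.8%): Hcfc1 (-2.15), Sin3a (-1.81) and Asxl1 (-1.40), which work with FOXK proteins or the BAP1 complex, Ep300 (-1.28), an acetyltransferase that acts with FOXO proteins, and Tfdp1 (-1.16), a dimer partner of E2F proteins. None was above 1. The highest was E2f4, listed for FOXM1 as Tfdp1 was, at 0.70. Sin3b, listed for FOXK as Sin3a was, stood at 0.30, and both E2f4 and Sin3b rose in the trend. In the edgeR trend 9 of the 22 fell (background 25.2%) and 6 rose (background 34.7%).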

How the data were processed

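Guide counts were deposited by the authors as raw whole-number reads per guide, per the file headers. Per the submitters' processing notes, reads were handled with cutadapt, Bowtie and featureCounts on build mm10, with versions not given in the sources used here. From these counts, guides with at least 30 reads in each plasmid library were kept, and counts were scaled with TMM factors (edgeR 4.0.16, R 4.3.3). Gene values are medians over guides of log2 ratios with a pseudocount of 1 CPM. Trends were tested with edgeR's quasi-likelihood method on reads summed per gene and per guide, with Benjamini-Hochberg adjustment over 1682 genes or 15336 guides, and DESeq2 1.42.0 as an alternative. The script was tested on simulated data. Coordinates and symbols are those of RefSeq (GRCm38.p6), and guide cut sites were not analysed here.

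Genes were named if called in the trend, past a log2 change of 1, among the 3 lowest or 3 highest medians, or in a list of factors chosen for their roles. Guides were printed for the 2 lowest and 2 highest members and the 2 others with the largest SD over guides, and Foxh1 guide 9 and Foxa3 guide 6 were singled out after their values were seen. The members, lists and rules were chosen with earlier results of these data known. The plasmid libraries are replicates of 1 pool, so their spread is technical. Foxk1, Foxo6, Foxr1 and Foxr2, also on that list, were not analysed here. Values of 1 member are not reported here, though it is part of the counts.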

Additional observations from a re-analysis of the deposited data

How the results depend on the processing

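The number of forkhead genes past a log2 change of 1 (1 of 36, all genes 16.9%) was 3 of 30 with at least 100 plasmid reads per guide (all genes 20.9%), 6 with scaling to the non-targeting guides (29.5%), 6 with G+C correction and that scaling (28.2%), 0 with G+C correction (16.5%), 0 from summed reads (15.0%), and 0 to 1 with 1 plasmid library left out (0 without plasmid 2, all genes 17.1%). The filter of 100 plasmid reads left 81 forkhead guides for the 30 genes. Under it Foxf1 (-1.17) rested on guides 1 and 3 alone, and Foxf2 (-1.27) on guides 7 and 9 alone. The family median of 0.22 was -0.44 with non-targeting scaling, 0.10 with G+C correction and -0.55 with both. The gene trend called 20 genes. With non-targeting scaling it called 20, all falling, and with G+C correction added 25, all falling; leaving out 1 library gave 14 to 21. The guide trend called 101 guides. It called 107 with non-targeting scaling (98 falling), 132 with G+C correction added (127 falling), 39 of 81 with at least 100 plasmid reads, 59 with cells set against plasmid, and 46 to 114 with 1 library left out (46 without plasmid 1, 53 without plasmid 2). The combined correction and the Foxh1 alternative were chosen after seeing the data.

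Slopes per day that changed sign with non-targeting scaling included those of Foxa1 (-0.020), Foxc2 (-0.029), Foxd1 (-0.014), Foxd4 (-0.035), Foxe1 (-0.018), Foxh1 (-0.021), Foxl2 (-0.023), Foxn3 (-0.021), Foxn4 (-0.021), Foxo3 (-0.011), Foxp1 (-0.030), Foxq1 (-0.001) and Foxs1 (-0.009). With G+C correction added they included Foxa1 (-0.022), Foxc2 (-0.054), Foxd1 (-0.053), Foxd4 (-0.048), Foxe1 (-0.065), Foxe3 (-0.031), Foxh1 (-0.027), Foxl1 (-0.023), Foxl2 (-0.013), Foxn3 (-0.031), Foxn4 (-0.042), Foxo3 (-0.024), Foxp1 (-0.025), Foxq1 (-0.025) and Foxs1 (-0.023). Foxe1 had -0.006 with G+C correction alone, and Foxl2 -3.1e-05 without day 12 (to 0.042 with another library left out). Foxh1 had -0.026 with at least 100 plasmid reads, a filter that left only its guide 2. Foxl1, Foxo3, Foxp3, Foxq1 and Foxs1 kept their rising call under every alternative without non-targeting scaling in which they were tested. None of the 3 falling calls was kept under every alternative in which it was tested. Foxn2 kept its call in 12 of 13, and Foxk2 and Foxm1 each kept theirs in 7 of 12. With non-targeting scaling all 3 were called falling, as were 73.1% of all genes. Their slopes there were -0.107 (Foxn2), -0.092 (Foxk2) and -0.141 (Foxm1). The cause was not tested. No paired analysis was possible because the cell libraries have 1 sample per time point. The median forkhead guide had 53 reads at day 12, which limits the precision of single guides.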
